A study of Mus musculus with 2 samples.

Results

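The resting-like Sfrp5 Cpm Hhip chondro-progenitors were 127 single cells, 24 in the vehicle library and 103 in the teriparatide library, of 1766 barcodes that passed the quality limits and 3428 barcodes in all. They were chosen by their own transcripts. A barcode was kept with 200 to 6000 genes and at most 10% mitochondrial UMIs (unique molecular identifiers, each standing for 1 captured transcript), and it had to hold no Ptprc, at least 1 UMI of Sox9, at least 5 UMIs of Acan and under 20 of Col10a1 per 10000 UMIs, and fewer than 2 of 11 mitotic genes. The last condition was a sum of at least 2 per 10000 UMIs over Sfrp5, a secreted Wnt antagonist, Cpm, a membrane carboxypeptidase, and Hhip, a membrane protein that binds Hedgehog ligands. Cells that met every condition but the last, 17 and 93 of them, were the nearest neighbours and are called the other non-cycling cells.

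The study examined metaphyseal mesenchymal progenitors, cells beneath the growth plate that are marked by Gli1, and asked how they respond to teriparatide, the N-terminal fragment of human parathyroid hormone. Both groups were Gli1-CreERT2;Ai9 mice aged 1 month, in which tamoxifen switched on tdTomato in cells that expressed Gli1 and in their later progeny. One group received teriparatide at 400 ng per g body weight and the other the vehicle solution, once daily by intraperitoneal injection for 3 days. The methods name 5 mice per group (3 males and 2 females) on a mixed background, mostly C57BL6 with 129, and femoral tdTomato+CD31-CD45-Ter119- cells were sorted after the epiphysis and growth plate had been cut away. Each condition was 1 library, so differences between the libraries have no replicate check, and treatment, library and mice cannot be told apart. The driver marks cells that expressed Gli1 around the tamoxifen doses, and their progeny, so a sorted cell need not express it at harvest. Whether growth plate cells remained after the dissection was not tested.

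The resting zone is the reserve of the growth plate. Its slowly dividing chondrocytes secrete parathyroid hormone-related protein (PTHrP, encoded by Pthlh), and they give rise to the proliferating columns below them. PTHrP acts through the receptor encoded by Pth1r, which raises cAMP and delays hypertrophy, while Indian hedgehog from prehypertrophic cells maintains PTHrP, so the pair form a feedback loop. Teriparatide binds the same receptor.

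Because teriparatide signals through cAMP, promoters of 13 genes (the 7 markers of the class with Pthlh, Pth1r, Igf1, Apoe, Gas1 and Ptch1) were read for the full palindromic cAMP response element, TGACGTCA, which reads the same on both strands. The RefSeq table on GRCm38.p6 held 12 of the 13 genes. These genes had 17 windows. The motif lay in 2 of the 17, those of Hhip and Meg3, and in 588 of 32851 windows of the same length in the table (1.79%), each from 250 bases before to 50 bases after a start site. The 150 bases before each of the 2 start sites are shown 5′ to 3′ on the gene's strand, with the motif in capitals. The Hhip stretch is chr8:80058009-80058158 on the minus strand with the motif beginning 75 bases before the start, and the Meg3 stretch is chr12:109540846-109540995 on the plus strand with the motif beginning 57 bases before it.
Hhip: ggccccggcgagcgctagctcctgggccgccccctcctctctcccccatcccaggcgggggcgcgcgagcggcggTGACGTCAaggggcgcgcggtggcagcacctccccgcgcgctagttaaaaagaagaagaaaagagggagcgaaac
Meg3: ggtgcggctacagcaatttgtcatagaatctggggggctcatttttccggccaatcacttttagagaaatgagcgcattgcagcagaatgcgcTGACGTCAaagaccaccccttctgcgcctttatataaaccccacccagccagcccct
A second Meg3 window in the table held no match. In the resting-like cells Hhip read 148 CPM (UMIs per 1000000 UMIs of the class, 95% interval 118 to 183) with vehicle and 256 CPM (237 to 276) with teriparatide. Meg3 read 1342 CPM (1248 to 1440) and 1132 CPM (1092 to 1174). The level of Hhip inside the class was partly set by the choice of cells, so no order is read from it. The log2 ratio of Meg3 between the libraries was -0.25, close to the median of all genes, -0.21. A match of letters is a description and not evidence of binding.

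Intervals on CPM are exact Poisson intervals, those on shares are Clopper-Pearson intervals, and those on ratios are conditional binomial intervals. All are at 95% and cover counting error only, not differences between mice or captures. The vehicle library held 10567335 UMIs over 1286 barcodes and the teriparatide library 26270041 UMIs over 2142. Depth in the resting-like cells was close, with a median of 24689 UMIs (6148 to 39700) in the vehicle library and 25894 UMIs (1332 to 43979) in the teriparatide library. The other non-cycling cells were deeper, at medians of 32712 and 31570 UMIs. The libraries shared 2 barcodes, and neither was a resting-like cell.

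The trio used for the choice formed a continuum with the rest, not a separate cloud. Its sum had a median of 9.1 per 10000 UMIs in the vehicle library and 8.62 in the teriparatide library, reaching 28.5 and 52.1. Just inside the threshold the vehicle values were 2.139, 2.141 and 2.504, and just outside it 1.996, 1.984 and 1.97. In the teriparatide library the values were 2.058, 2.071 and 2.244 inside and 1.944, 1.784 and 1.768 outside. In all, 5 of 24 and 22 of 103 cells lay under 4. All 3 genes were detected together in 14 and 56 cells, Cpm with Hhip in 5 and 27, Sfrp5 with Cpm in 3 and 8, and Cpm alone in 2 and 6.

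**Figure D1:**
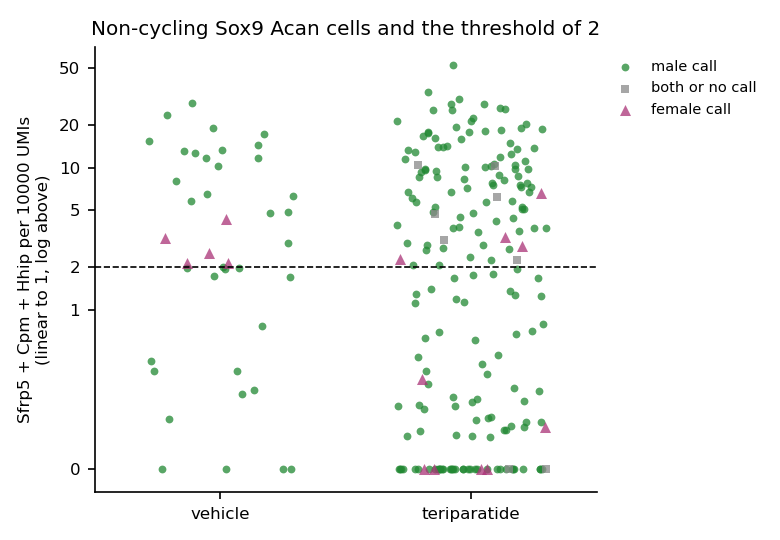
Sum of Sfrp5, Cpm and Hhip per 10000 UMIs in each non-cycling Sox9 Acan cell of the vehicle and teriparatide libraries, with the threshold of 2 drawn as a line. Resting-like cells have medians of 9.1 and 8.62 and reach down to the line, where other cells lie just below it at 1.996 and 1.944.

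Resting-like cells made up 58.5% (42.1 to 73.7) of the non-cycling Sox9 Acan cells of the vehicle library and 52.6% (45.3 to 59.7) of those of the teriparatide library. Each share lay inside the interval of the other. Of all kept Ptprc-negative barcodes they were 4.94% (3.19 to 7.26) and 12.8% (10.6 to 15.4). The other non-cycling cells went from 17 to 93 and the remaining Ptprc-negative barcodes from 397 to 410, so the second share moved together with the whole Sox9 Acan population. Sort, capture and treatment cannot be told apart in it.

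The label was held against its 7 markers. Sox9, the master regulator of chondrocytes, read 888 and 1289 CPM, and Acan, encoding the proteoglycan aggrecan, 3608 and 2914 CPM. Both were required by the choice and lay close to the other non-cycling cells, which read 872 and 950 CPM for Sox9 and 3334 and 3235 CPM for Acan. Ucma, a secreted cartilage matrix protein of the upper growth plate, was not used for the choice. Its level was 3181 CPM (3036 to 3331) with vehicle and 3784 CPM (3710 to 3860) with teriparatide. The other cells held less of it, at 2043 and 1471 CPM. Meg3, a maternally expressed long noncoding RNA, read 392 and 166 CPM in the other cells, a log2 ratio of 2.53 over both libraries. Of the 7 markers, 5 were conditions of the choice. Ucma and Meg3 were not, but the list was made with earlier results of these data known, so they do not test the label. Ucma was also found in 100% and 96.8% of the other non-cycling cells and in 100% of the cycling cells of each library. Meg3 was found in 52.9% and 38.7% of the other non-cycling cells.

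Since the choice of cells was made on these transcripts, the contrast with the other non-cycling cells is a description and has no test. A gene was counted where it differed at least 2-fold the same way in each library and in both together, with at least 50 UMIs in the 2 classes. Of 8102 genes with that depth, 260 (3.21%) were higher and 108 (1.33%) were lower in the resting-like cells. The median log2 ratio of all 8102 genes was 0.06. Counts of listed genes stand beside these figures, and nothing is read from the comparison.

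The resting zone list held 11 genes with enough UMIs. Of these, 5 were higher and 1 was lower, and their median log2 ratio was 1.23. Pthlh (ENSMUSG00000048776, GRCm38 chr6:147252101-147264183, minus strand) read 66.8 CPM (47.3 to 91.7) with vehicle and 105 CPM (92.6 to 118) with teriparatide. In the other cells it read 1.74 and 2.38 CPM, from 1 and 7 UMIs. The log2 ratio was 5.43 (4.43 to 6.65). The PTHrP transcript was thus concentrated in this class, but not in all of its cells. It was detected in 8 of 24 cells (33.3%) and 24 of 103 (23.3%), and after each cell was thinned to 13339 UMIs, with 4 and 13 shallower cells left out, in 15% and 17.8%. In the hemoglobin-rich barcodes, which should lack the gene and give the level of free RNA at median depths of 10743 and 10342 UMIs, it was found in none, thinned or not.

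Apoe, encoding the lipid carrier apolipoprotein E, was among the most enriched abundant genes. It read 3399 CPM (3249 to 3554) and 3271 CPM (3202 to 3341) in the resting-like cells, against 321 and 187 CPM in the other cells, a log2 ratio of 3.98 (3.87 to 4.09). Clu, encoding the extracellular chaperone clusterin, read 953 and 1367 CPM against 385 and 192 CPM. Spon1, encoding the matrix protein spondin 1, read 222 and 131 CPM against 13.9 and 10.5 CPM. Gas1, a membrane protein that binds Hedgehog ligands, read 153 and 31.4 CPM against 13.9 and 4.07 CPM. These 4 were higher in both libraries. Single cells spread widely around these sums. Apoe had a median of 31.2 per 10000 UMIs (0 to 120) in vehicle cells and 17.4 (0 to 253) in teriparatide cells, and Clu one of 3.38 (0 to 90.6) and 4.65 (0 to 162). Ucma, in contrast, was found in every cell, with medians of 26.8 (1.09 to 70.6) and 33 (3.49 to 96.3). Grem1, a BMP antagonist, was at 0 in the vehicle library and at 33.3 CPM in 10 cells of the teriparatide library, where 5 cells held 82.8% of its UMIs.

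**Figure D2:**
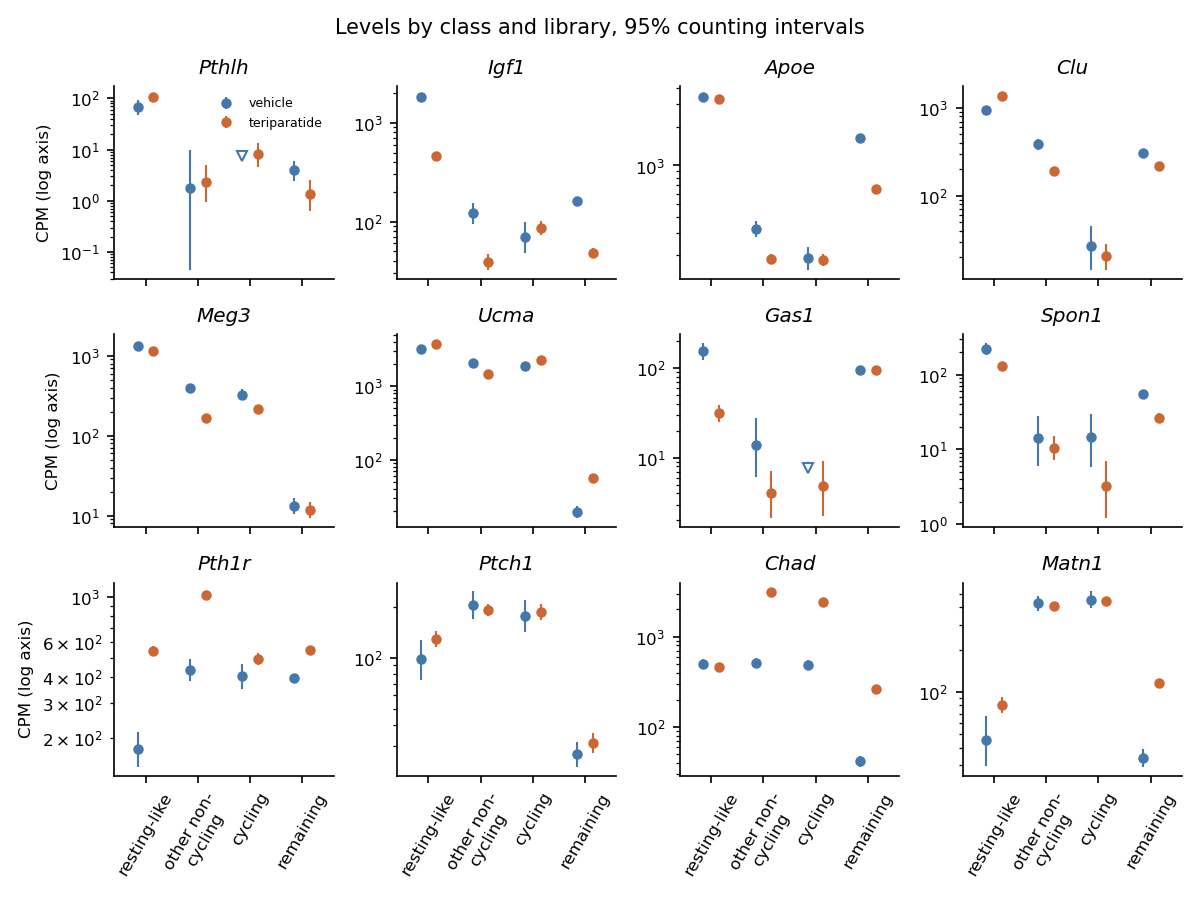
CPM on a log axis of 12 genes in resting-like, other non-cycling and cycling Sox9 Acan cells and the remaining Ptprc-negative barcodes of each library. Bars are exact Poisson intervals, and open triangles mark their upper limit where no UMI was found. Resting-like cells lie above the other non-cycling cells for Pthlh, Igf1 and Apoe in both libraries (Igf1 at 1811 against 122 CPM with vehicle) and below them for Matn1 and Pth1r.

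The receptor of the PTHrP axis had the opposite order to its ligand. Pth1r (ENSMUSG00000032492, chr9:110722085-110747145, minus strand) read 178 CPM (145 to 216) and 540 CPM (512 to 569) in the resting-like cells, against 436 and 1025 CPM in the other cells. The log2 ratio between the classes was -0.97 (-1.06 to -0.88), just short of 2-fold. Of the 15 genes of the PTH receptor and cAMP response list with enough UMIs, 2 were higher (Pthlh itself and the kinase gene Sik2) and none was lower, with a median of 0.33. Fos, an immediate early gene, read 5428 and 4693 CPM, and Nr4a1, an orphan nuclear receptor of the same early response, 267 and 269 CPM. Pde4b, a cAMP phosphodiesterase, read 343 and 329 CPM. These 3 did not differ 2-fold between the libraries, where 2 of 13 genes of the list were higher with teriparatide (Pth1r and the clock gene Per1) and none was lower. Over all genes tested between the libraries, 3.90% were higher and 6.22% lower, and nothing is read from the comparison.

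In the Hedgehog pathway the proteins that meet the ligand and those inside the cell were measured apart from Hhip, which the choice had used. Of 13 genes with enough UMIs, 3 were higher and none was lower. Gli2, the main activating transcription factor of the pathway, read 22.9 and 26.4 CPM against 1.74 and 6.79 CPM in the other cells. Boc, a co-receptor, read 54.5 and 31 CPM against 1.74 and 10.2 CPM. The third was Gas1, which binds the ligand. Cdon, another co-receptor, read 28.1 and 18 CPM against 8.72 and 10.2 CPM and did not pass the fold with teriparatide. Ptch1, the receptor and a transcriptional target of the pathway, lay the other way at 98.5 and 130 CPM against 206 and 191 CPM, a log2 ratio of -0.64. Smo, the signal transducer, read 63.3 and 104 CPM against 75 and 66.5 CPM. Gli1, the gene whose promoter drove the label, had 1 UMI in the 24 vehicle cells and 16 UMIs in the 103 teriparatide cells. Ihh, the ligand, had 0 and 9 UMIs in the resting-like cells and 0 and 325 UMIs in the other cells.

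The IGF system held a growth factor, its receptors and the proteins that bind or release it. Of 11 genes with enough UMIs, 4 were higher and 1 was lower. Igf1 (ENSMUSG00000020053, chr10:87858265-87937042, plus strand), encoding insulin-like growth factor 1, read 1811 CPM (1702 to 1925) and 467 CPM (441 to 494), against 122 and 39 CPM in the other cells, a log2 ratio of 3.75 (3.53 to 3.98). The proteases that free IGF from its binding proteins were on the same side. Pappa read 93.2 and 72.4 CPM against 6.97 and 17.3 CPM. Pappa2 (ENSMUSG00000073530, chr1:158711727-158980490, minus strand) read 22.9 and 21.5 CPM, from 13 and 56 UMIs, and had no UMI in the other cells of either library, so it was at least 25.5-fold higher against a floor of 3 UMIs over both libraries. Stc2, encoding stanniocalcin 2, an inhibitor of these proteases, was on the other side, at 7.03 and 24.1 CPM against 41.8 and 272 CPM, a log2 ratio of -3.48. Pappa2 was found in only 7 of 24 and 14 of 103 cells, and 5 cells held 84.6% and 69.6% of its UMIs. Summed over the class, the growth factor and both proteases were thus above the other cells and Stc2 below them. Igf2, the related fetal growth factor, read 31.7 and 17.6 CPM, and Igf1r, the receptor, 79.1 and 119 CPM. Igf2 was the other of the 4 that were higher.

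Ligands and inhibitors of Wnt and BMP signalling were read next. Of 3 Wnt antagonists with enough UMIs besides Sfrp5, none passed the fold, and Wif1, which binds Wnt proteins, read 271 and 194 CPM against 73.2 and 117 CPM. Of 9 Wnt receptors and targets none passed the fold, although their median was 0.79. Notum, a secreted enzyme that inactivates Wnt proteins, read 262 and 160 CPM, and Lef1, a transcription factor of the pathway, 116 and 87 CPM. Of 22 BMP and TGF-beta genes, 3 were higher and 1 was lower, with a median of 0.15. Bmp3, a BMP family ligand that antagonises its relatives, read 40.4 and 82.8 CPM against 3.49 and 4.07 CPM, and Tgfbr2, a TGF-beta receptor, 269 and 205 CPM with a log2 ratio of 1.73. None of 6 FGF genes passed the fold.

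Some genes of the zones that follow the resting zone were lower. In the columnar list 4 of 10 genes were lower and none was higher, with a median of -1.28. Chad, encoding chondroadherin of the columnar matrix, read 499 and 457 CPM against 514 and 3100 CPM, so it differed in the teriparatide library alone and was not counted. Matn1, encoding matrilin 1, read 45.7 and 80.9 CPM against 425 and 406 CPM. In the prehypertrophic and hypertrophic list 5 of 12 genes were lower and none was higher, with a median of -2.30. Panx3, a channel protein of prehypertrophic cells, read 3.52 and 12.3 CPM against 160 and 293 CPM. Mef2c, a transcription factor that drives hypertrophy, read 31.7 and 26.4 CPM against 108 and 335 CPM. Of 15 general cartilage matrix genes 1 was lower and none was higher, and Col2a1, encoding the type II collagen chain, read 37761 and 39070 CPM with a log2 ratio of -0.23. The median of the cartilage matrix list was -0.59. In each of these 3 lists most genes did not pass the fold.

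The 15 genes with the largest excess, by a fixed rule of size, were Sfrp5, 1810041L15Rik, Sorl1, Ocm, Mmp3, Pthlh, Flrt1, Hp, Pappa2, Cpm, Pcp4, Bmp3, Mn1, Efemp1 and Apoe, of which Sfrp5 and Cpm were used for the choice. Sorl1, a sorting receptor, read 51 and 31.4 CPM against 1.74 and 0.339 CPM. Pcp4, a calmodulin-binding peptide, read 72.1 and 90.4 CPM against 1.74 and 5.09 CPM. Efemp1, encoding an extracellular fibulin, read 114 and 65.5 CPM against 6.97 and 4.07 CPM. Hp, encoding haptoglobin, rested on 1 vehicle UMI and on 12 teriparatide cells, of which 5 held 94.9% of its 277 UMIs. The 15 with the largest deficit were Cbln2, Vldlr, Foxa2, Panx3, Sgms2, Slpi, Grb14, Col3a1, H2-Q7, Ppa1, Stc2, Mef2c, Smpd3, Mmp13 and Pltp. Mmp13, the collagenase of late hypertrophic cells, had 2 and 43 UMIs. Ppa1, an inorganic pyrophosphatase, read 556 and 179 CPM against 1996 and 3025 CPM, with 226 of its 316 vehicle UMIs in 1 cell. Without that cell its log2 ratio between the libraries went from -1.64 to 0.08. Foxa2, a transcription factor that the resting zone list also held, had 0 and 2 UMIs against 4 and 58 in the other cells.

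Several neighbouring cell types could share these markers. Of 6 articular cartilage genes 3 were higher, with a median of 1.82. The articular list summed to 698 and 599 CPM with Vit, a matrix protein gene, leading it, while Prg4, the defining lubricin gene of the joint surface, had 0 and 3 UMIs. Cilp2, a cartilage matrix gene of this list, read 178 and 107 CPM, and Gdf5, a joint-forming BMP ligand, 22.9 and 15 CPM. The perichondrium and fibroblast list summed to 2042 and 1961 CPM with Dcn, encoding decorin, leading it at 795 and 839 CPM, while Postn and Aspn were at 0 in both libraries. Of its 5 genes 1 was higher and 1 lower. Osteoblast genes summed to 747 and 883 CPM, led by Col1a2, with Mepe at 0 in both libraries, and 2 of 8 were lower. The remaining Ptprc-negative barcodes, in contrast, read 144114 and 154345 CPM over the same 10 genes. The marrow adipogenic list summed to 65.1 and 29.9 CPM with Lepr, Adipoq and Pparg at 0 in both libraries, and the endothelial list to 3.52 and 2.68 CPM. Other members of these lists were present. Cxcl12 led the adipogenic list at 31.7 CPM with vehicle and Cebpa at 14.9 CPM with teriparatide, and 8 and 9 of the 10 osteoblast genes had UMIs, with Sp7, a regulator of osteoblasts and hypertrophic cells, in 33.3% and 42.7% of cells. The other non-cycling cells summed to 321 and 214 CPM over the articular list. The part of these cell types in the values was not tested.

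Myeloid and erythroid transcripts moved with the library. The myeloid list summed to 10.6 CPM in the vehicle cells and 151 CPM in the teriparatide cells, led by S100a9 and S100a8 in that order, with Elane and Cd74 at 0 in both libraries. The hemoglobin-rich barcodes moved the same way, from 19.7 to 199 CPM. The erythroid list summed to 24.6 and 88.2 CPM. S100a8, a neutrophil protein gene, was found in 76.7% of the teriparatide resting-like cells, 78.5% of the other non-cycling cells and 52.1% of the hemoglobin-rich barcodes, and after thinning in 55.6%, 47.7% and 47.9%. The thinned share in the resting-like cells was thus close to that in barcodes of another type. The part of free RNA in the difference between the libraries was not tested.

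The class held cells from mice of both sexes. A cell was called male by UMIs of Y-linked genes without Xist and female by Xist without them. Of the 24 vehicle cells 19 were male and 5 female, and of the 103 teriparatide cells 93 were male, 4 female, 2 held both and 4 neither. The remaining Ptprc-negative barcodes held 136 male and 158 female cells in the vehicle library and 246 and 42 in the teriparatide library. The share of male cells among those called was 79.2% and 95.9% in the class, 100% and 93.4% in the other non-cycling cells and 78.6% and 87.2% in the cycling cells, beside 46.3% and 85.4% in the remaining barcodes. Most cells of all 3 Sox9 Acan classes were thus male, and the animals behind each sex are few and not tied to cells, so sex and mouse cannot be told apart. The female cells lay near the threshold, with trio medians of 2.5 and 3.04 per 10000 UMIs against 11.6 and 9.33 in male cells, and 7 of 9 were under 4 against 18 of 112 male cells. Sfrp5 itself was found in 2 of the 9 and in 80 of the 112.

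The female cells of the class held no UMI of Igf1, Pthlh or Gas1 in either library. Their 5 vehicle cells held 132156 UMIs and their 4 teriparatide cells 146507 UMIs, for which 3 UMIs, the floor used here, would be 22.7 and 20.5 CPM. The exact Poisson upper limits were 27.9 and 25.2 CPM. Male cells of the class read 2360 CPM (2218 to 2508) and 514 CPM (485 to 543) for Igf1. In the remaining Ptprc-negative barcodes, in contrast, Igf1 was close between the sexes, at 164 CPM in female and 153 CPM in male vehicle cells and at 49.3 and 48.6 CPM in the teriparatide library. Among the neighbouring Sox9 Acan classes, the 6 female other non-cycling cells of the teriparatide library held no UMI of Igf1, Pthlh or Gas1, and the 3 female cycling cells of the vehicle library held none of Igf1. The 6 female cycling cells of the teriparatide library read 63 CPM for Igf1, from 1 cell. Male cells of those classes were low as well, with Igf1 in 6 of 85 male other non-cycling teriparatide cells, which read 2.22 CPM for Pthlh and 3.69 CPM for Gas1, and with no Pthlh or Gas1 UMI in the 11 male cycling vehicle cells. By counting error alone Igf1 still differed in 2 of these groups. Male other non-cycling teriparatide cells read 42.5 CPM (35.1 to 51) against a female upper limit of 16.2 CPM. Male cycling vehicle cells read 96.5 CPM (66.8 to 134.9), from 1 cell, against a female upper limit of 37.8 CPM. Few cells held the gene, and counting intervals do not cover differences between cells. Apoe read 303 and 27.3 CPM in female cells of the class and 4336 and 3567 CPM in male ones. Of the vehicle female UMIs of Apoe 33 of 40 were in 1 cell, without which the level was 56.9 CPM. This order of Apoe was not particular to the class. Female other non-cycling teriparatide cells read 17.5 CPM against 197 CPM in male ones. Female cycling cells read 10.25 and 96.6 CPM against 255.5 and 206.5 CPM. In the remaining barcodes female cells read 1699 CPM against 1529 CPM with vehicle, and 205 CPM against 655 CPM with teriparatide. Chad and Matn1, both of the columnar list, lay the other way in the class. Chad read 1226 and 812 CPM in female cells and 280 and 402 CPM in male cells, and Matn1 197 and 689 CPM against 0 and 44.7 CPM. Ucma was close, at 2686 and 4280 CPM in female and 3331 and 3777 CPM in male cells. Of the Matn1 UMIs of female cells, 22 of 26 and 93 of 101 were in 1 cell of each library. Without those cells Matn1 read 42.2 CPM (11.5 to 108) and 78 CPM (33.7 to 154), and the second interval overlapped that of male cells, 36.6 to 54.1. Chad was found in all 9 female cells and without its richest cells read 865 and 630 CPM. Male cells equally near the threshold, under 4 per 10000 UMIs, were read beside the female ones. There were 17 of them with teriparatide and 1 with vehicle, so a comparison is possible with teriparatide alone. The 17 male cells read 9.10 CPM (2.48 to 23.3) for Pthlh and 11.4 CPM (3.69 to 26.5) for Gas1. Both levels lay under the upper limits of 31.8 CPM of the 3 female cells near the threshold. These female cells are thus too few to show a lower level of either gene. Chad read 985 CPM (894 to 1082) in these male cells and 800 CPM (646 to 981) in the female ones, and the intervals overlapped. Igf1 was found in 8 of the 17 male cells, at 168 CPM (132 to 211), and in none of the 3 female cells. Apoe read 1594 CPM (1478 to 1717) and 8.61 CPM (0.218 to 48). Matn1 read 66 CPM (44.2 to 94.7) in the male cells and 818 CPM (662 to 1000) in the female ones, mostly from 1 cell. Ucma read 4187 CPM (3998 to 4383) and 5027 CPM (4627 to 5451). Among teriparatide cells near the threshold the intervals of the sexes thus overlapped for Chad. They lay apart for Igf1, Apoe, Matn1 and Ucma, with 3 female cells, and do not cover differences between cells. Pthlh and Gas1 could not be compared. These genes were chosen for this comparison after their values were seen.

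**Figure D3:**
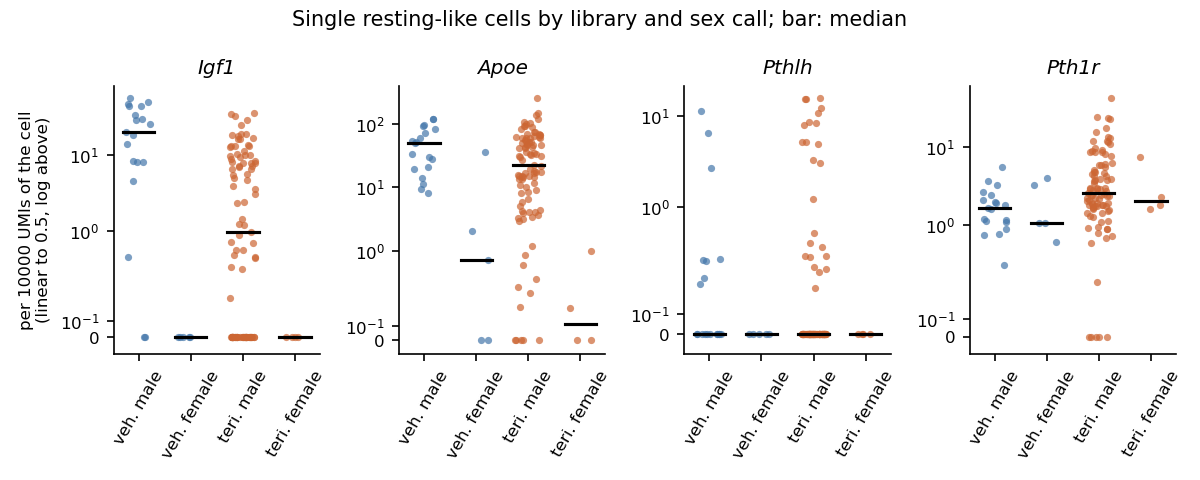
Level per 10000 UMIs (linear to 0.5, log above) of Igf1, Apoe, Pthlh and Pth1r in each resting-like cell, male-called and female-called cells apart, in the vehicle (veh.) and teriparatide (teri.) libraries, with the median as a bar. Every one of the 9 female-called cells is at 0 for Igf1 and Pthlh, while male-called cells have Igf1 medians of 20.2 with vehicle and 0.955 with teriparatide.

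Cells with and without a Pthlh UMI were set apart to see what went with the PTHrP transcript. The groups were made from the data, so their values are a description. The 38 vehicle UMIs of Pthlh lay in 8 cells, with 92.1% of them in 5 cells. The vehicle split thus rests partly on cells with few UMIs of the gene, and after thinning 3 of 20 vehicle cells held it. With teriparatide 5 of the 24 cells held 52.7% of its UMIs. Depth was close, at medians of 26971 and 24007 UMIs in the vehicle library and 24305 and 26567 in the teriparatide library. Igf1 read 2957 CPM in the 8 vehicle cells with Pthlh and 1139 CPM in the 16 without, and 1039 and 283 CPM in the 24 and 79 teriparatide cells. Meg3 read 1564 and 1211 CPM, then 1923 and 878 CPM. Pth1r lay lower in cells with Pthlh, at 133 and 204 CPM and at 248 and 633 CPM. Bmp3 was at 0 and 64.2 CPM in the vehicle library and at 18.9 and 103 CPM in the teriparatide library. The intervals of the receptor overlapped with vehicle. All 9 female cells were among those without Pthlh, so the split was repeated in male cells alone. Igf1 then read 2957 CPM in 8 and 1804 CPM in 11 vehicle cells, and 1039 and 322 CPM in 24 and 69 teriparatide cells. Meg3 read 1564 CPM (1400 to 1742) and 1468 CPM (1314 to 1635) with vehicle, which overlap, and 1923 and 902 CPM with teriparatide. Bmp3 stayed lower with Pthlh, at 0 and 92.8 CPM and at 18.9 and 110 CPM. Igf1 and Bmp3 thus kept their order among male cells of both libraries, and Meg3 had a clear one with teriparatide alone. Sfrp5, Wif1 and Clu kept no order, since Sfrp5 read 99.8 and 287 CPM with vehicle but 494 and 238 CPM with teriparatide. The cells with an Igf1 UMI, 17 and 58 of them, were set against the rest in the same way. Pthlh read 96.3 CPM in them and 5.42 CPM in the rest of the vehicle class, and 186 and 2.60 CPM with teriparatide. Gas1 read 227 and 0 CPM, then 48.1 and 10.4 CPM. Chad lay the other way at 203 and 1116 CPM, then 275 and 688 CPM. Most cells with Pthlh held Igf1, 7 of 8 and 21 of 24, while most cells with Igf1 lacked Pthlh. Of the 7 vehicle cells without Igf1, 5 were female, so with vehicle this split largely restates that by sex. In male cells alone Pthlh read 96.3 CPM (67.8 to 133) with Igf1 and 19.1 CPM (0.483 to 106) without it in the vehicle library, which overlap, and 186 and 3.28 CPM with teriparatide. Chad in male cells read 203 CPM in the 17 vehicle cells with Igf1 and 840 CPM in the 2 without, and 275 and 605 CPM in the 58 and 35 teriparatide cells.

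**Figure D4:**
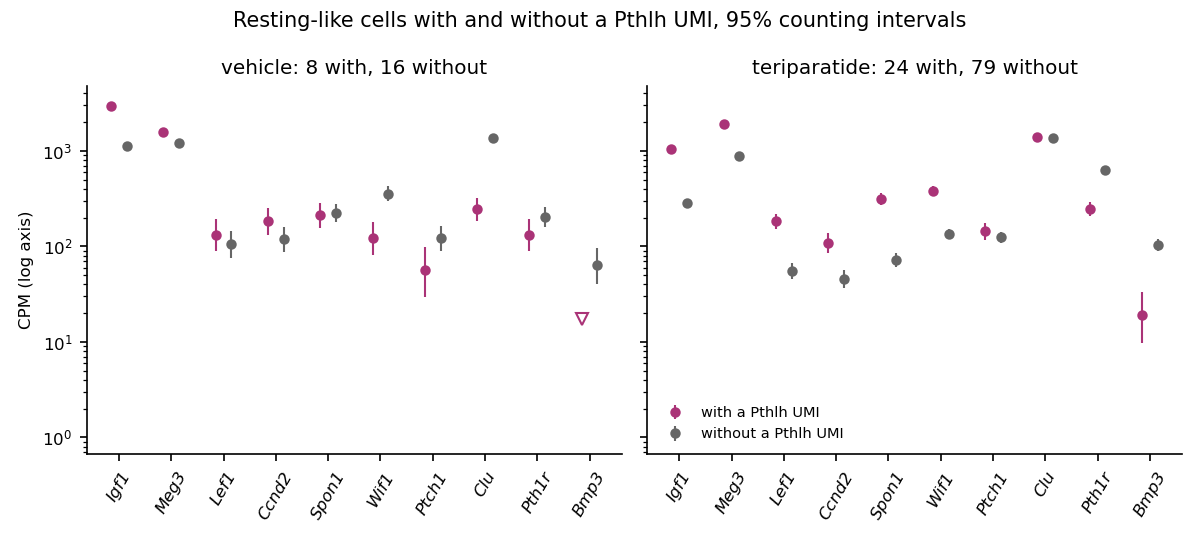
CPM on a log axis of 10 genes in resting-like cells with and without a Pthlh UMI, in each library. Bars are exact Poisson intervals, and an open triangle marks the upper limit where no UMI was found. Igf1 is higher with Pthlh in both libraries (2957 against 1139 and 1039 against 283 CPM), and Bmp3 is lower.

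Rank correlations across cells of a library, given as a description because cells share a library and a capture, had the same sign in both libraries for some pairs, which were chosen after their values were seen. Igf1 and Gas1 had a Spearman rho of 0.75 over 24 vehicle cells and 0.40 over 103 teriparatide cells. Against depth Igf1 had -0.20 and -0.17, and Gas1 -0.43 and -0.24. Igf1 and Pthlh had 0.37 and 0.49. Clu and Bmp3 had 0.64 and 0.57, although Clu itself had a rho with depth of -0.69 in the vehicle cells and 0.01 in the teriparatide cells. Bmp3 had -0.37 and -0.05 against depth. Apoe and Chad had -0.44 and -0.55, with Apoe at -0.68 and -0.04 against depth and Chad at 0.41 and -0.11. The part of depth in these values was not tested. That these pairs had 1 sign in both libraries follows from how they were chosen. Female cells of the class, which held no UMI of Igf1, Pthlh or Gas1, were pooled with male ones. The correlations were not repeated in male cells alone, so the part of sex in them was not tested. Spon1 with Wif1 had 0.70 in the teriparatide cells and 0.30 in the vehicle cells. Igf1 with Pth1r had -0.42 and 0.01, so that order was seen with teriparatide alone.

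Between the libraries, 5917 genes had at least 50 UMIs in the resting-like cells. Of these, 231 (3.90%) were at least 2-fold higher in the teriparatide library and 368 (6.22%) at least 2-fold lower. The median log2 ratio of all genes was -0.21, and changes are to be read relative to it. On libraries scaled by the median ratio of genes instead, 388 were higher and 181 lower, so that the part of the calls that was higher moved from 38.6% to 68.2%. Counting intervals do not cover the difference between 2 captures, and there is no p-value.

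Igf1 was lower in the teriparatide library, with a log2 ratio of -1.96 (-2.08 to -1.84) over all resting-like cells and -2.20 over male cells alone. UMIs were found in 17 of 24 vehicle cells and 58 of 103 teriparatide cells, and 5 cells held 61.3% of the vehicle UMIs and 27.5% of the teriparatide UMIs. After thinning it was found in 65% and 50% of cells. It was also lower in the other non-cycling cells, from 122 to 39 CPM, and in the remaining Ptprc-negative barcodes, from 161 to 48.1 CPM, so the order was not particular to this class. In the cycling Sox9 Acan cells it read 70.1 and 86.3 CPM.

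Pth1r was higher in the teriparatide library, with a log2 ratio of 1.60 (1.31 to 1.91), and 1.64 over male cells. The per-cell median in male cells was 1.65 per 10000 UMIs with vehicle and 2.54 with teriparatide, and the highest cells reached 5.46 and 41.4. The medians thus differed less than the summed levels. It was found in 95% and 92.2% of thinned cells. The other non-cycling cells had the same order, with a log2 ratio of 1.23. Pthlh had a log2 ratio of 0.65 (0.15 to 1.18), which in male cells was 0.40 with an interval that held 0, and Ptch1 one of 0.40.

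Gas1 was lower, from 153 CPM (122 to 189) to 31.4 CPM (25 to 39), a log2 ratio of -2.28 (-2.74 to -1.83) and -2.53 in male cells. Fbn1, encoding fibrillin 1 of matrix microfibrils, was lower from 246 to 47.1 CPM, and Tgfbi, a TGF-beta induced matrix protein gene, from 825 to 168 CPM. Tgfbi was also lower in the other non-cycling cells, at 745 and 240 CPM. In male other non-cycling cells Fbn1 read 22.7 and 7.76 CPM. Gas1 read 13.95 and 3.695 CPM there, from 8 and 10 UMIs, and its intervals overlapped. The lower level with teriparatide was thus not particular to the class. In male remaining barcodes Fbn1 read 468 and 232 CPM, but Gas1 83.7 and 101.6 CPM. Ccnd2, encoding the G1 cyclin D2, was lower from 144 to 60.9 CPM, but its log2 ratio went from -1.24 to -0.91 without the cell that held the most UMIs of it, 19. Runx3, a transcription factor of chondrocyte maturation, was higher from 139 to 342 CPM. Bmp3 had a log2 ratio of 1.03, which was 0.83 in male cells and so under 2-fold. Runx2, the related regulator of maturation and bone formation, read 38.7 and 78.9 CPM. After thinning, Runx2 was found in 50% and 52.2% of cells. Spp1, encoding osteopontin, read 58 and 325 CPM, but 5 cells held 88.8% of its teriparatide UMIs.

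By the rule of size, and past the fold in male cells as well, the 12 genes furthest below were Spon2, Sparcl1, Nrxn2, Lgals1, Dclk1, Pgk1, Fbn1, Tgfbi, Gas1, Hyou1, Tnfrsf12a and Pxylp1. Sparcl1, a matricellular protein gene, read 95 and 7.28 CPM, and Lgals1, encoding galectin 1, 114 and 16.1 CPM. Dclk1, a microtubule-associated kinase, read 172 and 29.5 CPM. Of the 80 vehicle UMIs of Spon2, 42 were in 1 cell, and in male cells its ratio was -1.59 with an interval that held 0. The 12 furthest above were Hp, Cldn3, Hdac11, Gm7334, 1700023F06Rik, Il17b, Deptor, Rnf122, Sept4, Gm8730, Sema6a and S100a8. Of these, 11 rested on 0 or 1 vehicle UMI, so their ratios are poorly set. The exception was Gm8730, annotated like Gm7334 as a processed pseudogene, whose reads may belong to a near-identical copy. Il17b, a secreted cytokine gene, had 0 vehicle UMIs and 81.2 CPM with teriparatide, whereas the other non-cycling cells read 249 and 195 CPM.

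**Figure D5:**
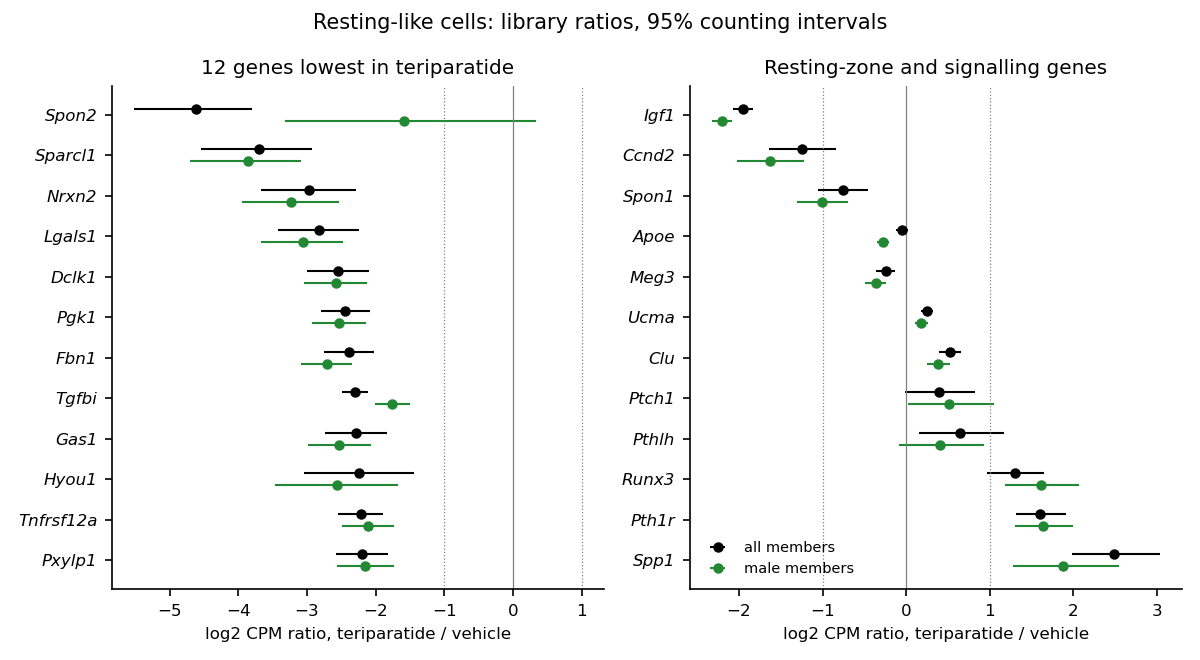
Log2 ratio of CPM, teriparatide over vehicle, in all resting-like cells (black) and male ones (green), for the 12 genes furthest below (left) and 12 resting zone and signalling genes (right), with counting intervals as bars, a solid line at 0 and dotted lines at 2-fold. Pth1r lies at 1.60, Igf1 at -1.96 and Gas1 at -2.28 in all cells, and Spon2 moves from -4.61 to -1.59 in male cells.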

How the data were processed

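The files were 2 filtered gene by barcode matrices of UMI counts, not normalized, which the authors deposited for tdTomato+ cells sorted from vehicle and teriparatide mice. The study's methods and labels give v2 chemistry, Cell Ranger 2.1.0 and mm10, while the matrix header names software 3.1.0. The study's methods speak of a matrix for each mouse, whereas 1 matrix per group was analysed here, and whether mice were pooled was not settled. The files held 27998 genes. No doublet caller was run, and the limit of 6000 genes was the only guard against doublets. Counts were summed per class and library and scaled to 1000000 UMIs (Python 3.11.15, NumPy 2.4.6, SciPy 1.17.1). With 1 library per condition, no count model was fitted and no p-value was computed. Genes were counted at 2-fold with at least 50 UMIs, checked first on simulated data. The simulation drew Poisson counts per class without spread between cells, so it does not cover calls carried by few cells. Named were the markers, genes of 27 lists with at least 50 UMIs, the 15 largest ratios each way between classes, the 12 each way between libraries that also passed in male cells, and list genes at 0. Members, lists and rule were chosen with earlier results of these data known. Coordinates are GENCODE vM21 on GRCm38. Shares were also computed after thinning to 13339 UMIs. Alternatives changed the threshold, quality limits, depth, UMI minimum, fold, scaling and sex of cells.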

Additional observations from a re-analysis of the deposited data

Results flagged for a closer look

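These orders were opposite in the groups compared, and the difference between the groups was not tested. Ibsp, encoding bone sialoprotein, had a log2 ratio of resting-like over other non-cycling cells of 6.01 in the vehicle library and -7.05 in the teriparatide library. All 64 vehicle UMIs of the gene in resting-like cells were in 1 cell, and 27 of 35 teriparatide UMIs were in 1 cell. Between the libraries Ibsp had a log2 ratio of -3.07 in resting-like cells and 10.00 in the other non-cycling cells. The ratios of 6.01 and 10.00 both rest on a level under the 3-UMI floor in the vehicle other non-cycling cells, so their sizes are poorly set. Bglap, encoding osteocalcin, had -2.20 in resting-like and 1.94 in the other cells, with 55 of the 63 vehicle UMIs in 1 cell, without which the ratio in resting-like cells was 0.71. Its neighbour Bglap2 had -1.78 and 1.39. Xist, which marks female cells, had -1.99 and 3.29, where the other non-cycling cells held 0 female cells with vehicle and 6 with teriparatide.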

How the results depend on the processing

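No paired analysis was possible because each condition was 1 library, and no library could be left out. At a threshold of 4 per 10000 UMIs the class held 100 cells and 41.3% of the non-cycling teriparatide cells, and 219 genes were higher and 167 lower than in the other cells, with 180 of the 260 and 98 of the 108 counted again. With a minimum of 1 UMI, 867 genes were higher and 358 lower between classes, and 3588 higher and 1942 lower between libraries. With a minimum of 200 UMIs the counts were 98, 53, 52 and 91 in the same order, and at 1.5-fold they were 673, 324, 616 and 1350. Thinned cells left 142 genes higher between libraries, out of fewer tested. They gave again 116 of the 260 higher and 58 of the 108 lower genes between classes, and 80 of 231 and 134 of 368 between libraries. Median-ratio scaling gave 388 higher and 181 lower between libraries. Without its richest cell, Ibsp between libraries turned from -3.07 to 1.28, and the ratio of Ppa1 moved from -1.64 to 0.08. That cell held all 64 vehicle UMIs of Ibsp, so 1.28 is set against the floor of 3 UMIs and its size is poorly set. In male cells alone, 217 of the 260 higher and 93 of the 108 lower genes between classes were counted again, as were 178 of 231 and 274 of 368 between libraries. Of the named genes' ratios, 88 values of 46 genes moved between classes and 92 values of 32 genes between libraries. Among ratios past the fold, 4 more changed sign without the richest cell, Bglap from -2.20 to 0.71, Bglap2 from -1.78 to 1.91, Hspb1 from -1.55 to 0.52 and Mmp3 from -1.33 to 0.11. Matn1 between libraries moved from 0.82 to at least 2.70 in male cells, where the vehicle cells held 0 UMIs and the floor of 3 UMIs was used. Wif1 moved from -0.48 to 0.18 without its richest cell. The cause was not tested for any of these. Leaving out the 2 cells with transcripts of both sexes was added after seeing the data and left 125 cells. Splits by Pthlh and Igf1 in male cells alone, female levels without the richest cell, and levels by sex near the threshold were also added after seeing the data.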

Other observations

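Other gene groups were read in the resting-like cells. Of 19 hypoxia and glycolysis genes, 3 were lower than in the other non-cycling cells and none higher, with a median log2 ratio of -0.50. Between the libraries 2 of 18 were lower with teriparatide and none higher, with a median of -0.81 beside -0.21 for all genes. Ldha, encoding lactate dehydrogenase A, read 1125 CPM with vehicle and 543 CPM with teriparatide, and Pgk1, a glycolytic kinase gene, 260 and 47.9 CPM. Pgk1 was also lower in the other non-cycling cells, at 453 and 115 CPM, and in the cycling cells, at 464 and 103 CPM. Whether the capture or the treatment set this order cannot be told apart.

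Of 15 imprinted growth genes, 2 were higher and 2 lower between classes, with a median of 0.35. H19, a maternally expressed noncoding RNA, read 821 and 580 CPM, and Plagl1, a zinc finger gene that regulates imprinted genes, 45.7 and 111 CPM with a class log2 ratio of -1.22. Of 17 chondrocyte transcription factors 1 was lower, of 12 cell cycle brakes and D cyclins 1 was higher, and of 5 skeletal stem cell surface genes none passed the fold. Of 17 dissociation response genes none passed the fold between classes and 1 was lower between libraries, with medians of 0.22 and -0.21.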
